A study of Homo sapiens with 4 samples.

Results

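The genes described here are 40 human genes of the EIF and EEF1 families, which encode factors of translation initiation and elongation. They were chosen by name, and a row of the deposited tables was assigned to a gene through its transcript in GENCODE 29. All 40 genes had reads, over 729 unique annotated introns, out of 17588 genes and 209592 introns in the whole series. The study read chromatin-bound nascent RNA with PacBio long reads from K562, a cell line of chronic myeloid leukaemia, in 2 groups of 2 samples. The first group carried SF3B1 K700E and the second wild-type SF3B1 (WT). Cells of both groups were induced with doxycycline at 1 µg/ml and harvested 4 days later, and all samples shared isolation of chromatin in 25 µM α-amanitin and removal of polyadenylated and ribosomal RNA. The labels do not name the promoter, the clone or the state of the second allele. They do not say either whether replicates were separate cultures. The spread between samples of a group may therefore be technical, and p-values speak for these samples only. The deposited counts hold no base calls, so the allele itself was not checked.

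SF3B1 belongs to the U2 snRNP and holds the region around the branch point while the spliceosome assembles. Translation begins when eIF2 brings initiator tRNA to the small ribosomal subunit, eIF3 holds the scanning complex together and the eIF4 factors recruit capped mRNA. The eEF1 complex then delivers aminoacyl-tRNA to the ribosome during elongation. Many of these genes are among the most transcribed in dividing cells.

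Splicing efficiency was taken, for each intron, as the percentage of its covering reads in which the annotated junction was formed. Reads joined at unannotated sites therefore entered as unspliced. So did reads joined at another annotated junction, at each annotated intron that overlaps it. The whole tables held 459726 and 909679 read-intron overlaps in the K700E samples, against 1346809 and 1185049 in the WT samples, which left K700E replicate 1 the shallowest. The translation factor genes held 2759 and 5209 of these in the K700E samples, against 11525 and 6650 in the WT samples. Per 100000 overlaps in all, that was 600 and 573 in the K700E samples, against 856 and 561 in the WT samples. The labels give the cell type as epithelial, which K562 is not. The 12 K562 markers summed on the same scale to 186 and 244 in the K700E samples, against 258 and 439 in the WT samples, with KLF1 at 0. TFRC alone held most of this sum. It had 730 of 853 and 1716 of 2218 overlaps in the K700E samples, against 2816 of 3469 and 3571 of 5201 in the WT samples. ALAS2 had 43 and 163 overlaps in the K700E samples, against 449 and 1119 in the WT samples. GATA1 had 6 and 10 overlaps in the K700E samples, against 4 and 11 in the WT samples. The 12 epithelial markers summed to 5.87 and 8.90 in the K700E samples, against 7.35 and 7.17 in the WT samples, with KRT5, CLDN4 and GRHL2 at 0. Others were read: KRT18 had 7 and 31 overlaps in the K700E samples, against 49 and 21 in the WT samples. KRT8 had 5 and 17 in the K700E samples, against 34 and 24 in the WT samples. CDH1 had 27 in K700E replicate 2 alone. KRT8 and KRT18 thus had more overlaps than GATA1 in most samples.

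Of the 729 introns, 35 in 7 genes had at least 10 reads in every sample, and 28 of these could be tested. Of the others, 6 had no junction read in any sample and 1 was spliced in every read. No intron of a translation factor gene passed a false discovery rate of 0.05 in edgeR's quasi-likelihood test, and none did in DESeq2 or limma. Over all 5093 introns tested, 5 passed, or 0.0982%: 4 lower in K700E cells (0.0785%) and 1 higher (0.0196%). At an unadjusted p under 0.05, 6 of the 28 introns were reached, all of EEF1A1 and all lower in K700E cells, beside 3.06% of all introns, and 2.28% counting lower ones alone. The mean was lower in K700E cells at 24 of the 28, beside 61.6% of all introns, and higher at 4, beside 38.3%. Both K700E samples lay below both WT samples at 11 of the 28 introns, beside 19.9% of all introns, and above them at 0, beside 9.19%. Without EEF1A1 it was 5 of 21 introns (23.8%), close to the share over all introns. The median difference, K700E minus WT, was -8.51 percentage points over the 28 introns, -4.57 without EEF1A1 and -1.67 over all introns. Long reads over several introns count once in each, so introns of 1 gene are not independent. Dispersion was set to 0 in this test. Its p-values rest on counting error and on a scatter that the quasi-likelihood step pooled over introns. A p that misses the threshold does not show that the groups act alike, and with 2 samples a group an exact permutation test cannot go below a p of 0.333.

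EEF1A1 encodes the subunit of eEF1 that carries aminoacyl-tRNA to the ribosome, and it held the introns with the most reads of the 40 genes. The K700E samples lay below the WT samples at 6 of its 7 tested introns, and the groups overlapped at 1. These 6 include a pair of annotations of the last intron (91 and 95 nt) whose 5′ splice sites lie 4 nt apart, with the same 3′ splice site, and that had identical counts, so they are a single measurement. Of the 6 introns, 3 are shown here because their sequence could be read from a GENCODE 29 transcript that retains them. Each lies on chromosome 6 (hg38, minus strand) between coding exons, and capitals mark the first and last 2 bases.
EEF1A1 intron 3, 108 nt, chr6:73519229-73519336: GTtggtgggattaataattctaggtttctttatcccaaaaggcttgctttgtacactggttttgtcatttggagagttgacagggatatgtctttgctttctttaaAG
EEF1A1 intron 4, 83 nt, chr6:73518849-73518931: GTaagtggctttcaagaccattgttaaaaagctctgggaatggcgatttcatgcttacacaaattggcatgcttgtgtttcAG
EEF1A1 intron 8, 89 nt, chr6:73518265-73518353: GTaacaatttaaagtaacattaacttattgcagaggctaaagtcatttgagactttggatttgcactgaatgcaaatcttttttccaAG

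All 3 begin with GT and end with AG. Pyrimidines made up 75% of the 20 nt before the last 3 bases of intron 3, 55% in intron 4 and 65% in intron 8. Over 113 introns of the translation factor genes whose sequence could be read in the same way, the median was 75% (35 to 100%).

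Intron 4 of EEF1A1 had the most reads of the eEF1 introns. Its efficiency was 80.9% of 47 reads and 70.8% of 137 in the K700E samples, against 89.3% of 741 and 87.1% of 170 in the WT samples. The groups did not overlap, and the means were 75.8% ± 7.11 in K700E and 88.2% ± 1.61 in WT (SD, n = 2 each). The 95% Wilson intervals, which cover counting error only, were 67.5 to 89.6% and 62.7 to 77.8% in the K700E samples, against 86.9 to 91.4% and 81.2 to 91.3% in the WT samples. K700E replicate 1 thus overlapped both WT samples in counting error, while the interval of K700E replicate 2 lay below both. The log2 odds ratio was -1.54 ± 0.62 (standard error), with an adjusted p of 0.985 in edgeR's quasi-likelihood test. Without K700E replicate 2 the ratio was -0.93.

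Intron 8 had the smallest p of all introns of these genes. Its efficiency was 83.3% of 48 reads and 79.3% of 111 in the K700E samples, against 100% of 498 and 88.0% of 175 in the WT samples. The groups again did not overlap, but WT replicate 1 stood apart from WT replicate 2. For WT replicate 1 the table lists 502 junction reads against 498 reads over the intron, so that its ratio exceeded 1 and was set to 1. The log2 odds ratio was -2.89 ± 0.86 (unadjusted p = 0.00075, adjusted p = 0.477 by edgeR). Without WT replicate 2 it was -9.24 with an adjusted p of 0.000534, and without WT replicate 1 it was -0.82 with an adjusted p of 0.999. The call therefore turned on which WT sample was kept.

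Intron 3 was spliced in 77.8% and 69.2% of reads in the K700E samples, against 89.0% and 81.1% in the WT samples. Intron 5 (87 nt, 73518611 to 73518697) stood at 81.8% and 77.4% in the K700E samples, against 92.9% and 87.2% in the WT samples. Intron 9, the last (91 nt, 73517935 to 73518025), stood at 77.8% and 70.7% in the K700E samples, against 90.2% and 92.6% in the WT samples. At all 3, both K700E samples lay below both WT samples. Adjusted p was 0.985 for each by edgeR, with log2 odds ratios of -1.58 ± 0.63, -1.62 ± 0.69 and -1.97 ± 0.78. Without WT replicate 1 the ratio was -0.79 at intron 3 and -0.90 at intron 5, and it was -2.27 at intron 9.

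The longer upstream introns of EEF1A1 gave other values. Intron 2 (366 nt, 73519517 to 73519882) was spliced in 40.0% of 15 reads and 62.5% of 56 in the K700E samples, against 56.2% of 144 and 59.4% of 32 in the WT samples. The groups overlapped there, and in every sample the value was below that of introns 3, 4, 5, 8 and 9. Intron 1 (943 nt, in the 5′ UTR) had 1 and 7 reads in the K700E samples, against 30 and 5 in the WT samples, too few to compare. The human genome also holds processed copies of EEF1A1 that lack introns, and the sources used here do not say how reads from them were aligned.

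**Figure D1:**
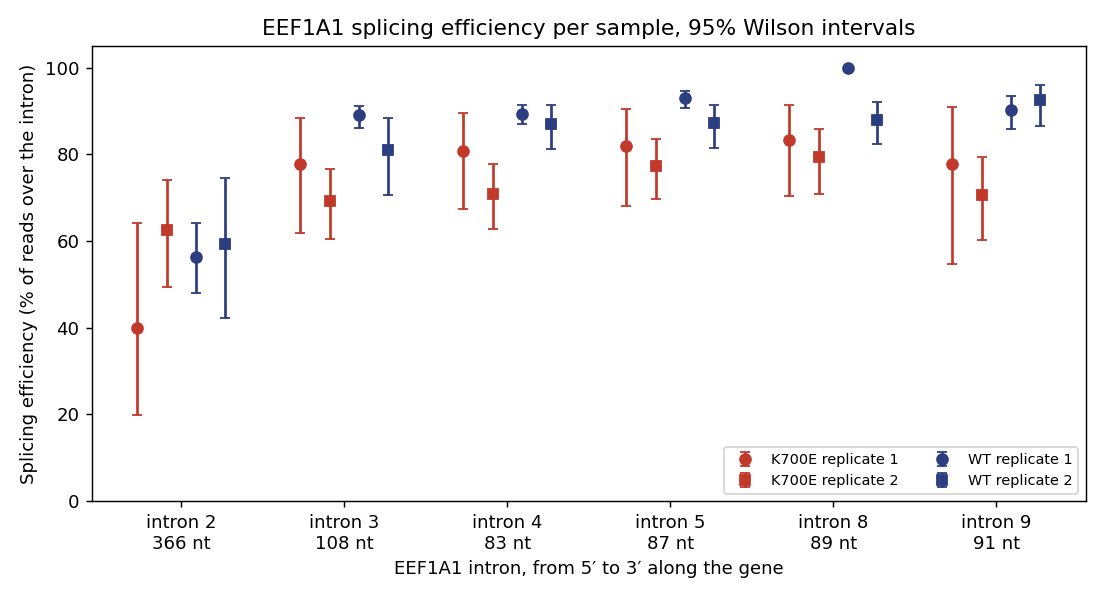
Splicing efficiency (%) of 6 EEF1A1 introns in each of the 4 samples, with 95% Wilson intervals as bars and introns in order from 5′ to 3′. At introns 3, 4, 5, 8 and 9 both K700E points lie below both WT points, while at intron 2 the K700E points (40.0 and 62.5%) lie on either side of the WT points.

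Summed over all its introns, EEF1A1 was spliced in 77.2% of 228 read-intron overlaps and 72.7% of 732 in the K700E samples, against 90.4% of 3203 and 87.4% of 872 in the WT samples. The means were 74.9% ± 3.19 in K700E and 88.9% ± 2.16 in WT (SD, n = 2 each), a difference of -14.0 points. Its log2 odds ratio was -1.45 ± 0.36. The unadjusted p of 0.00698 was the smallest among the translation factor genes, and the adjusted p over all genes was 1.00 by edgeR. The ratio lay between -1.67 and -1.22 with each sample left out in turn. With the most used of overlapping introns alone, the difference was -13.3 points.

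Genes of start codon selection had 11 tested introns, in EIF2A, EIF2S3 and EIF5, of which 9 had a lower mean in K700E cells, beside 61.6% of all introns, and 2 a higher one. None reached an unadjusted p under 0.05. Both K700E samples lay below both WT samples at 2 (18.2%), beside 19.9% of all introns, and above them at 0, beside 9.19%. EIF2S3 encodes the subunit of eIF2 that binds GTP and the initiator tRNA, and 8 of its introns had at least 10 reads in every sample. Intron 5 of EIF2S3 (chromosome X, 24060183 to 24062415, plus strand) had the most reads of this group. It was spliced in 81.5% of 27 reads and 92.9% of 28 in the K700E samples, against 98.7% of 76 and 93.5% of 62 in the WT samples. K700E replicate 1 was the low sample, and the log2 odds ratio was -1.89 ± 1.42 (adjusted p = 0.985 by edgeR). It was -1.01 without K700E replicate 1, -1.05 without WT replicate 1 and -3.22 without WT replicate 2. The other 7 EIF2S3 introns ranged from 76.5 to 100% in the K700E samples and from 78.3 to 100% in the WT samples.

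EIF2A encodes a factor that can bring initiator tRNA to the ribosome without GTP. Its intron 8 (129 nt, chromosome 3, 150568047 to 150568175, plus strand) was spliced in 53.8% of 13 reads and 53.3% of 15 in the K700E samples, against 83.3% of 36 and 40.0% of 15 in the WT samples. The WT samples lay on either side of both K700E samples, and without WT replicate 1 the log2 odds ratio of -1.04 turned to 0.77. Without WT replicate 2 it was -2.08. EIF5 encodes the factor that promotes GTP hydrolysis by eIF2, and its only tested intron, intron 9 (305 nt), named after its values were seen, stood at 72.7% and 33.3% in the K700E samples, against 63.5% and 65.0% in the WT samples. The K700E samples lay on either side of the WT samples.

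The scaffold eIF3 had 6 tested introns, in EIF3A and EIF3B, of which 5 had a lower mean in K700E cells, beside 61.6% of all introns. None reached an unadjusted p under 0.05, and both K700E samples lay below both WT samples at 2 (33.3%), beside 19.9%. EIF3A encodes the largest scaffold subunit. Its intron 3 (387 nt, chromosome 10, 119073054 to 119073440, minus strand), the most read, was spliced in 76.9% of 13 reads and 88.9% of 27 in the K700E samples, against 92.4% of 66 and 93.1% of 29 in the WT samples. Its intron 5 (1231 nt) stood at 75% and 90.0% in the K700E samples, against 98.4% and 89.7% in the WT samples. K700E replicate 1 was the low sample at both, on 13 and 12 reads. EIF3B encodes a scaffold subunit that contacts the 40S ribosomal subunit, and its intron 7 is shown because it had the lowest efficiency among the tested eIF3 introns.
EIF3B intron 7, 76 nt, chr7:2366449-2366524 (hg38, plus strand): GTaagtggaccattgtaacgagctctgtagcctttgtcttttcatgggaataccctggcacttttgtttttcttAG

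This short intron was spliced in 50% of 10 reads and 53.8% of 13 in the K700E samples, against 79.5% of 44 and 61.1% of 36 in the WT samples. Both K700E samples lay below both WT samples, and the log2 odds ratio was -1.17 ± 1.12 (adjusted p = 0.985 by edgeR). Leaving out WT replicate 1 gave -0.52, and leaving out WT replicate 2 gave -1.81. Pyrimidines made up 80% of the 20 nt before its last 3 bases. The next intron of EIF3B, intron 8 (407 nt), stood at 80.0% and 57.1% in the K700E samples, against 85.4% and 77.1% in the WT samples, where the groups overlapped. Intron 10 (2094 nt) was spliced in every read of every sample.

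The cap-binding group had 4 tested introns, all of EIF4G2, which encodes a relative of the eIF4G scaffold that lacks the binding site for the cap-binding protein eIF4E. Its intron 12 (84 nt, chromosome 11, 10802210 to 10802293, minus strand) was spliced in 45.5% of 11 reads and 46.2% of 13 in the K700E samples, against 74.5% of 51 and 62.5% of 32 in the WT samples. The groups did not overlap, with a log2 odds ratio of -1.44 ± 1.09 (adjusted p = 0.985 by edgeR). Intron 13, which had the most reads of the group and the lowest mean efficiency among its tested introns, is shown by its last 60 bases, with the final AG in capitals.
EIF4G2 intron 13, 274 nt, chr11:10801775-10802048 (hg38, minus strand): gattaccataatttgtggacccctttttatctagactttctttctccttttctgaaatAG

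Intron 13 was spliced in 21.4% of 14 reads and 29.4% of 17 in the K700E samples, against 45.1% of 51 and 29.3% of 41 in the WT samples. WT replicate 2 lay between the K700E samples. The share of pyrimidines before its 3′ end was 80%, as in EIF3B intron 7. Intron 2 (369 nt), named after its values were seen, had the higher mean in K700E cells, at 80.0% and 71.4% in the K700E samples, against 48.4% and 82.4% in the WT samples. The groups overlapped there.

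**Figure D2:**
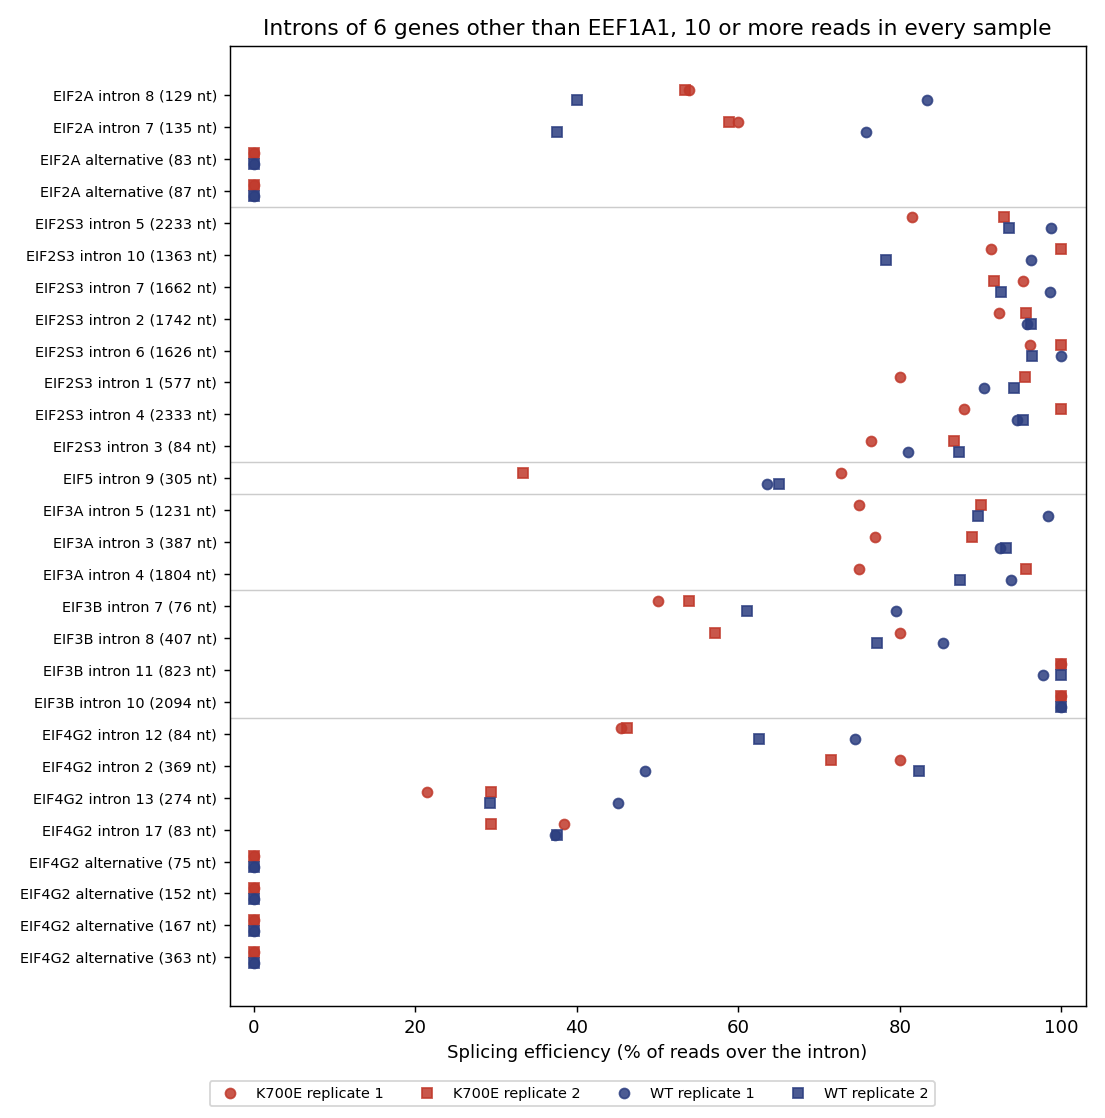
Splicing efficiency (%) of the 28 introns outside EEF1A1 that had 10 or more reads in each sample, with circles for replicate 1 and squares for replicate 2 and K700E points above WT points in each row. EIF2S3 introns lie above 75% in every sample, EIF4G2 introns spread from 0 to 82.4%, and 6 alternative introns of EIF2A and EIF4G2 stand at 0 in all samples.

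The 6 introns with no junction read lie in EIF2A (2) and EIF4G2 (4). Of these, 3 follow alternative first exons in the 5′ UTR of EIF4G2 and share a 3′ splice site. The other 3 lie inside coding exons of other transcripts of the same gene, so a read without the junction is also a read of a spliced exon. Those with distinct ends are shown because their letters look like introns, GT to AG, while no read carried their junction.
EIF4G2, 75 nt, chr11:10800169-10800243 (hg38, minus strand): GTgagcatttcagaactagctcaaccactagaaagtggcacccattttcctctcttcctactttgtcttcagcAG
EIF2A, 83 nt, chr3:150567930-150568012 (hg38, plus strand): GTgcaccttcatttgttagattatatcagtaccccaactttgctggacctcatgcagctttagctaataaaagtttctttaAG

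Upper limits for 0 reads are given here as 3 divided by the reads of both samples of a group. They take these reads as independent and leave out any spread between the samples. For the EIF4G2 segment, 0 of 30 reads in K700E cells carried the junction, which allows a share of up to 10.0%, and 0 of 79 in WT cells, which allows up to 3.80%. For the EIF2A segment it was 0 of 26 reads in K700E cells, which allows up to 11.5%, and 0 of 47 in WT cells, which allows up to 6.38%. EIF1, whose product guards the choice of the start codon, holds a like segment of 83 nt in its last exon (chromosome 17, 41690820 to 41690902). There 0 of 43 reads in K700E cells carried the junction, which allows up to 6.98%, and 0 of 140 in WT cells, which allows up to 2.14%. Reads over such segments count as unspliced in the gene values that follow, which overlapping annotated introns lower as well. EIF2B3 stood at 34.1% and 42.4% in the K700E samples over all introns, against 41.2% and 39.6% in the WT samples. Over the most used of overlapping introns alone it stood at 80.8% and 94.4% in the K700E samples, against 97.2% and 96.2% in the WT samples.

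With a minimum of 5 reads in every sample, 126 introns of 21 genes entered and 96 could be tested. None passed a false discovery rate of 0.05 by edgeR, beside 0.0256% of all introns at that minimum, 0.0192% lower and 0.0064% higher. At an unadjusted p under 0.05 there were 8, all lower in K700E cells, beside 2.23% of all introns, and 1.79% counting lower ones alone. Both K700E samples lay below both WT samples at 26 (27.1%), beside 17.7% of all introns, and above them at 5 (5.21%), beside 9.52%. The mean was lower in K700E cells at 71, beside 59.1%, and higher at 25, beside 40.5%. Of the 8 with a p under 0.05, 6 were the EEF1A1 introns, and the others were intron 11 of EIF3E and intron 18 of EIF4G3, named here after their values were seen. Intron 11 of EIF3E (283 nt, chromosome 8, 108203118 to 108203400), from the gene of an eIF3 subunit, was spliced in 0% of 7 reads and 10.5% of 19 in the K700E samples, against 72.2% of 18 and 50% of 14 in the WT samples. The groups were far apart, and the unadjusted p was 0.00269 and the adjusted p 1.00 by edgeR. Intron 18 of EIF4G3 had 5 reads in each K700E sample.

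Over whole genes, 33 of the 40 could be tested, and the other 7 (EEF1B2, EEF1D, EIF1AX, EIF2B2, EIF3F, EIF3G and EIF6) had too few reads in some sample. A long read counts once at each intron it covers, so the overlaps of a gene are not independent. Standard errors and p-values per gene take them as separate counts. No translation factor gene passed by edgeR, DESeq2 or limma, beside 0% of all 4903 genes by edgeR. At an unadjusted p under 0.05 there were 3 (EEF1A1, EIF2B1 and EIF4G3), all lower in K700E cells, beside 3.3% of all genes, and 2.88% counting lower ones alone. Both K700E samples lay below both WT samples in 11 genes (33.3%), beside 21.3% of all genes, and above them in 2 (6.06%), beside 10.2%. The median difference was -3.64 points, and it was -2.58 over all genes.

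By role, 4 of the 7 genes of start codon selection had a lower mean in K700E cells, as did 4 of the 4 eIF2B genes and 9 of the 11 eIF3 genes. The mean was also lower in 5 of the 7 cap-binding genes and in 0 of the 1 gene of eIF5A and eIF6 (EIF5A). It was lower in 2 of the 3 genes grouped by an EEF1 symbol alone (EEF1A1, EEF1E1 and EEF1G). Over all genes tested the share was 62.5%, and 37.5% had a higher mean.

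EIF2B1 encodes the alpha subunit of eIF2B, the exchange factor that recharges eIF2 with GTP and is the target of the integrated stress response. It was spliced in 17.9% of 28 overlaps and 33.3% of 36 in the K700E samples, against 63.6% of 55 and 70.5% of 44 in the WT samples. The groups were far apart, with means of 25.6% ± 10.9 in K700E and 67.0% ± 4.82 in WT (SD, n = 2 each). EIF2B1 had a log2 odds ratio of -2.55 ± 0.75 (unadjusted p = 0.015, adjusted p = 1.00 by edgeR). These overlaps were spread over 11 introns, none with 5 reads in every sample, so no single intron of EIF2B1 could be tested. The most reads over any single intron were 4 and 6 in the K700E samples, against 11 and 7 in the WT samples. The overlaps may therefore come from few molecules, each counted at several introns. The other 3 eIF2B genes tested had overlapping groups: their means differed by -5.12 points in EIF2B5, -2.15 in EIF2B3 and -1.60 in EIF2B4. Over the most used of overlapping introns alone these differences were -12.8, -9.11 and -3.06 points.

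EIF4G3 encodes another eIF4G scaffold. It stood at 22.2% of 126 overlaps and 49.5% of 109 in the K700E samples, against 84.3% of 70 and 58.5% of 41 in the WT samples. The most reads over any single intron of EIF4G3 were 7 and 6 in the K700E samples, against 7 and 9 in the WT samples. The log2 odds ratio was -2.36 ± 0.92 (unadjusted p = 0.0439, adjusted p = 1.00 by edgeR), and it was -1.48 without K700E replicate 1 and -1.39 without WT replicate 1. EIF4G2 stood at 30.2% and 31.7% in the K700E samples, against 47.7% and 38.7% in the WT samples. It held 275 to 1191 overlaps per sample, and its log2 odds ratio was -0.76 ± 0.36 (adjusted p = 1.00 by edgeR). Without WT replicate 1 it was -0.49.

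EIF5B encodes the GTPase that joins the ribosomal subunits, and its K700E samples lay above both WT samples. It was spliced in 52.9% of 34 overlaps and 59.5% of 84 in the K700E samples, against 31.8% of 66 and 39.5% of 43 in the WT samples. EIF5B had a log2 odds ratio of 1.24 ± 0.61 (adjusted p = 1.00 by edgeR). EIF3D, which encodes a cap-contacting eIF3 subunit, was the only other gene of the 33 in that order, named after its values were seen, at 60.9% and 55.8% in the K700E samples, against 47.1% and 43.8% in the WT samples. Over the most used of overlapping introns alone its difference of 12.8 points was 25.5.

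The remaining genes with the smallest p were EIF3I, EEF1G and EIF3E. EIF3I, from the gene of a propeller-shaped eIF3 subunit, stood at 40.4% and 63.4% in the K700E samples, against 68.6% and 72.5% in the WT samples. EEF1G, which encodes a structural eEF1 subunit, stood at 42.9% and 49.5% in the K700E samples, against 57.4% and 68.6% in the WT samples. EIF3E stood at 46.4% and 49.2% in the K700E samples, against 58.2% and 56.5% in the WT samples. Over the most used of overlapping introns alone EIF3E was at 64.3% and 76.9% in the K700E samples, against 91.6% and 94.0% in the WT samples, and its log2 odds ratio of -0.55 was -2.37. In all 3 both K700E samples lay below both WT samples, with adjusted p of 1.00 by edgeR.

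The same order of samples was found in another 4 genes, which are EIF2S1, EIF3C, EIF3H and EIF3M. They were named after their values were seen. EIF2S1, which encodes the eIF2 subunit that stress kinases phosphorylate, stood at 76.0% and 72.1% in the K700E samples, against 93.9% and 77.3% in the WT samples. EIF3C, which has a near-identical copy, EIF3CL, that could share its reads, stood at 37.5% and 55.4% in the K700E samples, against 61.4% and 57.3% in the WT samples. EIF3H and EIF3M encode eIF3 subunits. EIF3H stood at 16.1% and 19.0% in the K700E samples, against 28.5% and 21.3% in the WT samples. EIF3M stood at 38.2% and 39.7% in the K700E samples, against 49.0% and 46.8% in the WT samples. WT replicate 1 was the highest sample in all 4.

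The order of samples in these genes depended on which introns were counted. With the most used of overlapping introns alone, a choice made after the data were seen, EIF2S1 stood at 100% and 89.1% in the K700E samples, against 97.9% and 92.4% in the WT samples. EIF3M stood at 70.0% and 76.0% in the K700E samples, against 73.7% and 80.0% in the WT samples. EIF3H, with 5 reads left in K700E replicate 1, stood at 100% and 91.5% in the K700E samples, against 98.4% and 90.8% in the WT samples, a difference of 1.18 points in place of -7.30. The groups overlapped in all 3, while in EIF3C they did not. By that count 29 of the genes could be tested, and both K700E samples lay below both WT samples in 10, beside 21% of all genes, and above them in 2, beside 9.93%. Of the 10 genes, 8 were among the 11 found over all introns, and the other 2 were EIF2B3 and EIF3B.

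The widest spread within a group was in EIF2S2, which encodes the beta subunit of eIF2, at 58.8% and 80.0% in the K700E samples, against 88.1% and 19.6% in the WT samples.

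**Figure D3:**
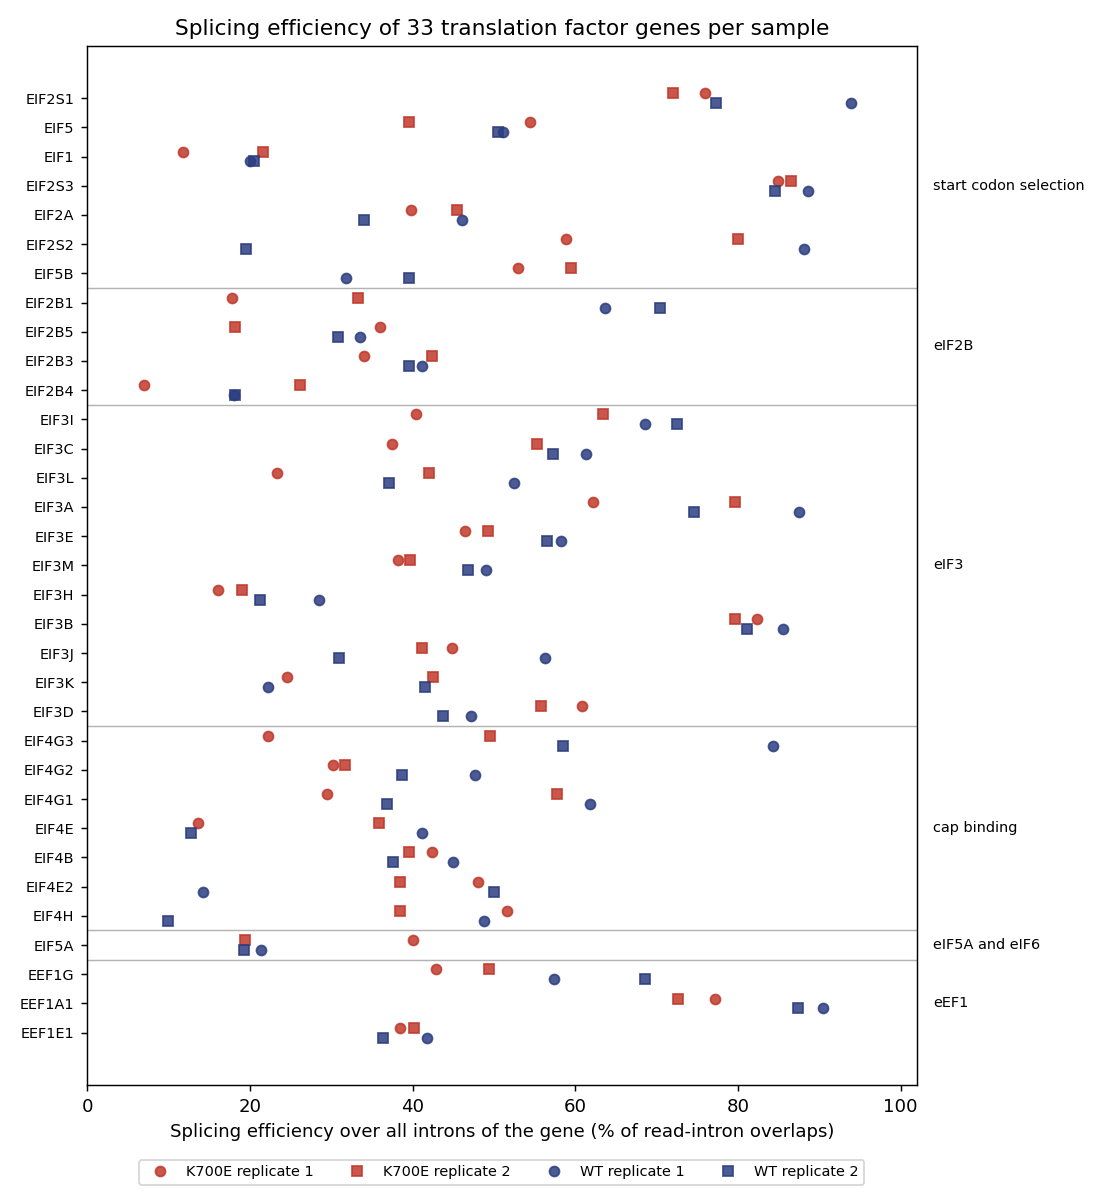
Splicing efficiency (%) over all introns of 33 translation factor genes, grouped by role, with circles for replicate 1 and squares for replicate 2 and K700E points above WT points in each row. EEF1A1, EIF2B1 and EIF4G2 show both K700E points left of both WT points, EIF5B and EIF3D show the reverse, and the points of the 2 groups overlap in 20 genes.

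The mean efficiency over the 35 introns was 61.4% and 62.0% in the K700E samples, against 69.7% and 65.3% in the WT samples. The difference was -5.76 points, and it was -4.06 without EEF1A1. Over all 6141 introns that passed the same minimum, the mean was 61.8% and 63.8% in the K700E samples, against 65.5% and 63.6% in the WT samples, a difference of -1.75 points. Among the introns of the translation factor genes the K700E samples were the lower ones, while over all introns K700E replicate 2 lay between the WT samples. WT replicate 1 was the highest sample in both sets, and without it the difference over the 35 introns was -3.56 points. By place, the 16 internal introns averaged 67.3% and 69.3% in the K700E samples, against 77.1% and 72.9% in the WT samples. All internal introns averaged 68.3% and 70.7% in the K700E samples, against 72.6% and 70.3% in the WT samples. The 4 first introns averaged 20.0% and 23.9% in the K700E samples, against 22.6% and 23.5% in the WT samples, 3 of them being the EIF4G2 introns at 0. All first introns averaged 25.0% and 25.7% in the K700E samples, against 25.3% and 25.4% in the WT samples. By length, the 23 introns of up to 403 nt averaged 47.6% and 45.7% in the K700E samples, against 56.0% and 51.5% in the WT samples. The 8 introns of 1363 to 2333 nt averaged 89.9% and 97.0% in the K700E samples, against 97.2% and 92.5% in the WT samples. The 6 introns with no junction read are all among the 23 short ones. The other 17 averaged 64.4% and 61.9% in the K700E samples, against 75.8% and 69.6% in the WT samples. With or without the 6, short introns were less spliced than the 8 long ones in every sample, and the groups overlapped in the long ones. The 8 long introns lie in 3 genes, and most are of EIF2S3. Over all introns of up to 403 nt the mean was 51.1% and 51.9% in the K700E samples, against 54.7% and 53.1% in the WT samples. Over all introns of 1261 to 3502 nt it was 71.5% and 74.7% in the K700E samples, against 75.9% and 73.6% in the WT samples. The order by length was thus not particular to these genes.

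Use of alternative annotated splice sites could not be tested in any translation factor gene at 10 junction reads in every sample, where 0% of 669 junctions passed. At 5 junction reads, 10 junctions of EIF2B3, EIF3B, EIF3E, EIF4B and EIF4G2 were tested and none passed, beside 0.0459% of all 2181. The smallest adjusted p was 0.894 and none had an unadjusted p under 0.05. The junction of EIF4G2 that skips the exon between introns 13 and 14 was used in 0 of 5 and 0 of 5 reads in the K700E samples, together allowing up to 30.0%, against 3 of 26 and 3 of 14 in the WT samples. In EIF3E, 1 of a pair of junctions that share a 5′ splice site was used in 2 of 5 and 1 of 14 reads in the K700E samples, against 23 of 52 and 5 of 33 in the WT samples, where the groups overlapped. The other 4 junctions with the smallest p, of EIF2B3 (2), EIF4B and EIF4G2, were used in at most 1 read in K700E cells and at most 2 reads in WT cells. Alternative sites closer than 12 nt were merged before this test, so the choice between them was not tested.

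Nascent reads per gene were counted over the most covered intron and are given as TMM-scaled CPM. These are counts scaled to the sum of such reads over the genes tested. In bulk samples, fewer cells that transcribe a gene and less RNA per cell cannot be told apart. No translation factor gene of the 22 tested passed by edgeR, none reached an unadjusted p under 0.05, and DESeq2 called none, beside 0% of all 2963 genes at the false discovery rate and 5.57% at the unadjusted p, 3.48% counting lower ones alone. The groups did not overlap in 8 of the 22: K700E samples were below in 3 (13.6%), beside 18.5% of all genes, and above in 5 (22.7%), beside 16.8%. EEF1A1 had 1523 and 1979 CPM in the K700E samples, against 7671 and 1968 in the WT samples. WT replicate 1 alone was high, and WT replicate 2 lay between the K700E samples. The log2 fold change was -1.46 ± 0.77 (adjusted p = 0.829 by edgeR), and -0.15 without WT replicate 1.

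EIF4G2 had 227 and 318 CPM in the K700E samples, against 828 and 324 in the WT samples, with a log2 fold change of -1.05 ± 0.70 that was -0.19 without WT replicate 1. EIF2B3, which encodes the gamma subunit of eIF2B, had 486 and 477 CPM in the K700E samples, against 72.5 and 313 in the WT samples. Its log2 fold change was 1.33 ± 0.72 (adjusted p = 0.829 by edgeR). Without WT replicate 2 it was 2.69 with an adjusted p of 0.0183, and without WT replicate 1 it was 0.63. EIF3C, which encodes a core eIF3 subunit, had 194 and 289 CPM in the K700E samples, against 82.8 and 139 in the WT samples.

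The remaining genes with the smallest p had adjusted p of 0.865 to 0.890 by edgeR. EIF3E had 259 and 260 CPM in the K700E samples, against 487 and 405 in the WT samples. EIF4B, which encodes a helper of the eIF4A helicase, had 259 and 274 in the K700E samples, against 580 and 347 in the WT samples. EIF4H, which encodes a related helper, had 227 and 202 in the K700E samples, against 186 and 34.7 in the WT samples. EIF2B5, which encodes the catalytic subunit of eIF2B, had 292 and 72.2 in the K700E samples, against 404 and 232 in the WT samples, where the groups overlapped. The most covered intron of EIF1, which was not among the smallest p, is the exonic segment without junction reads. Read counts behind the values of EIF2B5, EIF3E, EIF4B and EIF4H ranged from 3 to 56 reads a sample.

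**Figure D4:**
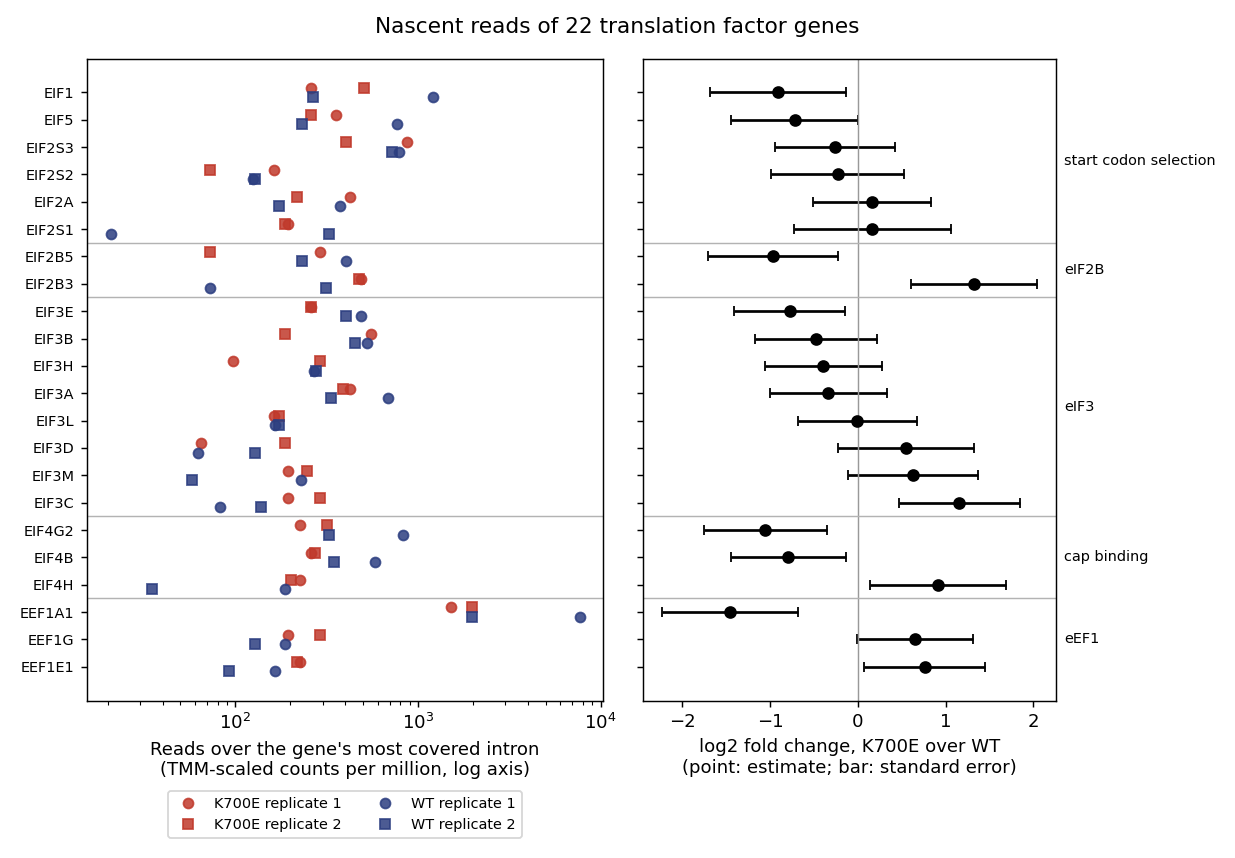
Left, reads over the most covered intron of 22 translation factor genes (TMM-scaled CPM, log axis) in each sample, with circles for replicate 1, squares for replicate 2 and K700E points above WT points. Right, log2 fold change of K700E over WT with its standard error as a bar; EEF1A1 at -1.46 and EIF2B3 at 1.33 are the extremes, and WT replicate 1 is the far point of EEF1A1.

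Another 57 genes of translation (helicases, elongation factor 2, release factors, aminoacyl-tRNA synthetases, kinases and other regulators) served as a second list. Of these, 37 could be tested for efficiency per gene and none passed by edgeR. At an unadjusted p under 0.05 there was 1 (2.70%), beside 3.3% of all genes. Both K700E samples lay below both WT samples in 13 of the 37 (35.1%), beside 21.3% of all genes, and above in 2 (5.41%), beside 10.2%. The median difference was -3.66 points, and it was -2.58 over all genes. These shares were close to those of the translation factor genes. The gene with the smallest p was KARS, which encodes lysyl-tRNA synthetase, at 50% and 51.9% in the K700E samples, against 88.2% and 68.9% in the WT samples. EEF2, which encodes the elongation factor that moves the ribosome along mRNA, stood at 77.0% and 78.8% in the K700E samples, against 88.3% and 88.0% in the WT samples, a difference of -10.2 points (adjusted p = 1.00 by edgeR). Nascent reads of EEF2 were 97.2 and 202 CPM in the K700E samples, against 745 and 313 in the WT samples. Over 28 genes of this list none passed for nascent reads by edgeR, and 2 (EEF2 and PPP1R15B) reached an unadjusted p under 0.05, both lower in K700E cells. That was 7.14% of the 28, beside 5.57% of all genes, and 3.48% counting lower ones alone.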

How the data were processed

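Per the labels' protocols, RNA of isolated chromatin was depleted of polyadenylated and ribosomal RNA, joined to a 3′ adapter, reverse transcribed with template switching and PCR amplified before long-read sequencing; no molecular identifiers are named, so intervals cover counting error only. Per the submitters' processing notes, cutadapt, minimap2 and hg38 were used, with no version or setting given. The deposited tables hold 2 raw read counts per annotated intron of a transcript, reads over it and reads with its junction, and the authors' ratio of them, rounded, which matched the counts within 0.005. Inside the tables the K700E samples are named MUT2 and MUT3, while their titles number them as replicates 1 and 2, which are the numbers used here; the WT names and titles carry the same numbers. The tables of polymerase positions carry no identifiers and were not used here.

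Rows were placed on GENCODE 29 by transcript, intron number, start and strand (87.3 to 87.6% placed), and introns with the same coordinates were counted once. Unspliced reads are reads over the intron minus junction reads, with ratios above 1 set to 1. Sequences were read from GENCODE 29 transcripts that contain the intron, since no genome was used here.

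Efficiency was tested by a quasi-likelihood model (edgeR 4.0.16, R 4.3.3) that took unspliced and spliced reads as paired columns with a term for spliced reads in K700E against WT. The fit covered every intron with at least 10 reads, or every gene with at least 10 overlaps, in each sample, with Benjamini-Hochberg adjustment over all of them. Dispersion was 0 for introns and junctions, as in earlier work on these data, where it was chosen after results were known. The quasi-likelihood step still estimated a scatter pooled over introns or junctions. Replicate scatter of a single intron therefore has little part in its p. For genes the dispersion was estimated. Nascent reads used TMM and genes with at least 10 reads in 2 or more samples. DESeq2 1.42.0 and limma 3.58.1 (0.5 added to each count) were alternatives. Scripts were tested on simulated data.

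The genes, lists and tests were chosen with earlier results of these data known. Values are given for the 12 introns, 8 genes per gene test and 6 junctions with the smallest p, the tested intron with the most reads in each role, and anything past the threshold; no intron had enough reads in every sample for the set of deeply read introns (at most 48 in K700E replicate 1).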

Additional observations from a re-analysis of the deposited data

How the results depend on the processing

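Of the 12 alternatives run for introns, 11 called 0 introns of the translation factor genes; without WT replicate 2 it was 1, the 89-nt intron 8 of EEF1A1. Over all introns the count of 5 became 0 with DESeq2, 0 with limma, 1 with an estimated dispersion and 3 with the replicate block, and 0 to 12 with each sample left out. Per gene, 0 translation factor genes were called in all 12 alternatives, and the count of 0 over all genes became 1 with DESeq2 and 1 with the most used of overlapping introns. For splice site choice the count of 0 over all junctions became 1 at a minimum of 5 reads. For nascent reads the count of 0 became 1 over all genes with no filter, and 0 to 135 with each sample left out; among translation factor genes it was 0 to 1, EIF2B3 without WT replicate 2. Leaving out a sample leaves a group with 1 sample, assumed to vary like the other group. The log2 odds ratio of EIF2A intron 8 changed sign without WT replicate 1 (0.77) and was -2.08 without WT replicate 2. The mean difference over the introns was -9.48 points at a minimum of 20 reads, where 6 introns were left, and -7.96 to -3.56 with each sample left out; that of first introns was -4.57 points with the most used of overlapping introns, where 1 intron was left. Replicate numbers did not pair the samples: besides the other numbers that the K700E tables carry inside, same-numbered deviations had correlations of -0.0912 over introns and 0.00561 over nascent reads. The replicate block gave log2 odds ratios of -1.89 for EEF1A1 intron 8 and -1.43 for EEF1A1 as a gene and changed no call among the translation factor genes. Depth, with 10 to 48 reads per tested intron in K700E replicate 1, limits all of these values.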

Other observations

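Several introns of the translation factor genes hold small RNA genes in GENCODE 29, and their splicing in chromatin-bound RNA was read in few molecules. Intron 14 of EIF4G2, which holds the C/D box snoRNA gene SNORD97, was spliced in 62.5% of 8 reads and 55.6% of 9 in the K700E samples, against 65.7% of 35 and 39.3% of 28 in the WT samples, where the groups overlapped. Intron 9 of EIF3A, which holds the H/ACA box gene SNORA19, was spliced in 100% of 1 read and 77.8% of 9 in the K700E samples, against 91.7% of 12 and 73.3% of 15 in the WT samples. Intron 20 of EIF4G1, which holds SNORD66, was spliced in 75% of 4 reads and 75% of 4 in the K700E samples, against 100% of 10 and 75% of 4 in the WT samples. Intron 6 of EIF5, which holds SNORA28, was spliced in all of its 2 and 3 reads in the K700E samples and all of its 8 and 2 reads in the WT samples. None of these was tested at 10 reads in every sample, and the values are given as a description.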
